A study of Mus musculus with 6 samples.

Results

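Among the genes of the interleukin-10 and interleukin-12 families measured in brain microglia, Il10 was upregulated in lupus-prone MRL/lpr mice, and no other member passed the test in either direction. The families were represented by 9 genes of the 55401 in the count table, taken as the rows whose Ensembl identifiers map to the symbols Il10, Il10ra, Il10rb, Il12a, Il12b, Il12rb1, Il23a, Il27 and Ebi3. The rule uses symbols and no measured value, although the families were picked with earlier results of these data known. The libraries came from untreated 6-week-old mice of the MRL/lpr strain, which carry the lpr mutation of the death receptor gene Fas, and from MRL/mpj mice of the same age, the matching strain without it and also untreated, with 3 libraries per strain. Both strains share the autoimmunity-prone MRL background. Microglia were enriched from brain on a Percoll gradient and then selected magnetically on CD11b, a surface integrin of microglia that other myeloid cells and NK cells carry too. The study describes the sequenced groups as 3 mice each, while the labels do not tie a library to an animal, so p-values measure only the spread between these libraries.

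IL-10 is a cytokine through which myeloid cells and lymphocytes restrain inflammation. It binds a receptor made of a private chain, IL10RA, and a chain shared with other cytokines, IL10RB, which signal through the kinases JAK1 and TYK2 to the transcription factor STAT3. Cytokines of the IL-12 family are pairs of chains, and the chains are shared between family members. The Il12b chain joins the Il12a chain to form IL-12 or the Il23a chain to form IL-23, and the Ebi3 chain joins the Il27 chain to form IL-27. IL-12 and IL-23 made by antigen-presenting cells act mainly on T cells and NK cells.

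Library totals ran from 45481609 to 49846634 counts. Counts were not spread evenly over whole numbers, since between 1138 and 1288 genes of a library had exactly 4 counts and between 320 and 415 had exactly 3. If 1 read pair is worth 4 counts, the Il10 counts of 39 to 195 rest on 9.75 to 48.75 pairs. The microglial marker Tmem119 had at least 99987 counts in each library. Fas had a log2 fold change of -0.06 (SE 0.21, adjusted p = 0.887), so its counts do not check the strain labels. CPM values are counts relative to the library total, scaled for library composition unless stated otherwise. Xist averaged 228 CPM in MRL/lpr libraries and 0.614 CPM in MRL/mpj libraries, although the methods describe female mice of both strains. The libraries labelled MRL/mpj thus go against that description, and sex and strain cannot be told apart in any comparison below.

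The members covered a wide range of levels, with the receptor chains of IL-10 at the top. On the deposited FPKM scale, which corrects for gene length and allows genes to be compared, Il10ra had the highest median over the 6 libraries, 115 FPKM. Its mean of 133 FPKM lay at percentile 98.8 of the genes tested. Il10rb followed with a median of 22.2 FPKM, and the cytokine chains Ebi3 and Il12b with 11.7 and 4.73 FPKM. The levels of these 4 genes did not overlap between neighbours in this order. Il27 and Il10 came next, with medians of 2.27 and 1.23 FPKM and library ranges that overlapped. Il23a had a median of 0.34 FPKM and a range that overlapped that of Il10. Il12rb1, the receptor chain that IL-12 and IL-23 share, had a median of 0.08 FPKM. Il12a was last and was listed at 0 in 4 of the 6 libraries, so the common chain Il12b was far more abundant than either of its partner chains in each library.

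**Figure D1:**
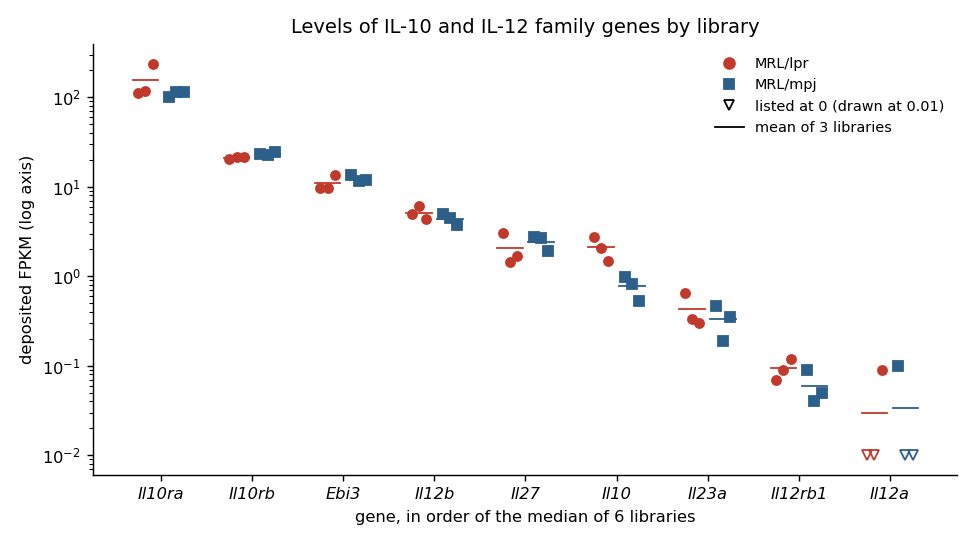
Deposited FPKM (log axis) of the 9 family genes, ordered by the median of the 6 libraries, with 1 point per library (circles MRL/lpr, squares MRL/mpj) and a line at the mean of each strain. Il10ra lies highest at 101 to 239 FPKM, Il12a is listed at 0 in 4 libraries (open triangles, drawn at 0.01), and Il10 separates the strains.

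Il10 (ENSMUSG00000016529, GRCm38 chr1:131019845-131024974, plus strand) encodes the IL-10 ligand itself. It had 195, 148 and 99 counts in MRL/lpr replicates 1 to 3, against 71, 59 and 39 counts in MRL/mpj replicates 1 to 3. After scaling by TMM, a correction for library composition, these were 4.15, 3.14 and 2.37 CPM against 1.38, 1.18 and 0.75 CPM. Each MRL/lpr library lay above each MRL/mpj library. Mean levels were 3.22 ± 0.892 CPM in MRL/lpr mice and 1.1 ± 0.323 CPM in MRL/mpj mice (SD, n = 3 each). The fitted log2 fold change was 1.54 (SE 0.34, 95% interval 0.77 to 2.32), a 2.92-fold higher level, with an adjusted p of 0.0113 by edgeR's quasi-likelihood test over all 19554 genes tested. Without MRL/lpr replicate 1, the library with the most Il10, the log2 fold change was 1.32 and the call was lost at an adjusted p of 0.0506.

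Il10 was 1 of the 8 members with enough counts to be tested, and the other 7 did not pass in edgeR, DESeq2 or limma. The lowest unadjusted p among these 7 was 0.0645 for Il12b (edgeR). Over all genes tested, 11.1% passed with higher levels in MRL/lpr mice, 9.06% passed with lower levels, and 20.2% passed in either direction. Il10 was also the only member called by the stricter rule of the study, an adjusted p under 0.05 and a log2 fold change of 1 or more in size, which 4.67% of genes met in the same direction, 3.66% in the other and 8.34% in either. The share of members called was therefore near the background. The median log2 fold change of the 8 members was 0.40, against -0.01 over all genes tested.

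The summed levels of T cell and NK cell marker lists were also higher in MRL/lpr libraries. The summed level of 10 T cell markers was 25.0 to 30.8 CPM in MRL/lpr libraries and 8.25 to 8.46 CPM in MRL/mpj libraries, and 7 of the 10 rose, among them Cd3e and Cd8a. None of the T cell markers was at 0 in each library, and Cd8b1 had 70, 77 and 28 counts in MRL/lpr libraries and 0 counts in each MRL/mpj library. The 9 NK cell markers summed to 18.8 to 23.1 CPM against 9.80 to 10.4 CPM, and 5 of the 8 tested rose. These 5 were Gzma, Gzmb, Prf1, Eomes and Nkg7. None of Ncr1, Klrb1c, Klre1 and Klrd1 rose, and 2 of the 8 had log2 fold changes below 0. Of 7 B cell markers tested, none passed (edgeR), with an adjusted p of 0.0516 for Cd79a. Log2 fold changes were above 0 for 5 of the 7 and below 0 for 2, with a median of 1.09. The summed level of the whole list went the other way, at 60.5 to 64.2 CPM in MRL/lpr libraries against 65.3 to 74.6 CPM. Cr2 was at 0 in each library. Plasma cell markers summed to 96.6 to 104 CPM against 73.4 to 77.8 CPM, with 3 of 6 higher by the test. Microglial markers summed to 22505 to 25164 CPM against 26717 to 27331 CPM, and 3 of 10 fell. The part of these cells in the Il10 difference was not tested. In bulk RNA, fewer cells of a type and less RNA per cell cannot be told apart.

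Other myeloid and brain lists held calls in both directions. The background was 11.1% of all genes tested with a rise and 9.06% with a fall, for these lists and those of the preceding paragraph. Log2 fold changes of both signs occurred within the dendritic cell (5 above 0, 3 below), oligodendrocyte (2 and 4) and endothelial (4 and 2) lists. All 8 neutrophil markers were above 0, and all 7 neuronal and all 6 choroid plexus markers were below 0. Dendritic cell markers summed to 49.3 to 53.6 CPM in MRL/lpr libraries and 37.5 to 38.7 CPM in MRL/mpj libraries, with 2 of 8 higher by the test. Neutrophil markers summed to 585 to 663 CPM against 456 to 515 CPM, and 3 of 8 rose. Monocyte markers overlapped between strains, at 75.6 to 84.8 CPM against 82.9 to 89.8 CPM, with 3 of 6 higher and 1 lower. Border macrophage markers were lower, at 51.4 to 53.1 CPM against 55.6 to 64.4 CPM, and 2 of 7 fell. Choroid plexus markers were 339 to 350 CPM against 1026 to 1103 CPM, and 5 of 6 fell. Of the remaining lists, 2 of 7 neuronal and 2 of 6 oligodendrocyte markers fell, 2 of 6 endothelial markers rose, and none of 6 astrocyte markers passed (edgeR).

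Il10ra (ENSMUSG00000032089, chr9:45253837-45269149, minus strand) encodes the ligand-binding chain of the IL-10 receptor. Its counts were 20956, 22003 and 42303 in MRL/lpr replicates 1 to 3 and 19590, 21729 and 22513 in MRL/mpj replicates 1 to 3, or 446, 467 and 1012 CPM against 381, 435 and 433 CPM. Each MRL/lpr library lay above each MRL/mpj library, as 19.6% of all genes tested did (19.4% did the opposite), but MRL/lpr replicate 3 stood far above the rest. The log2 fold change was 0.62 (SE 0.37, 95% interval -0.34 to 1.59, adjusted p = 0.337). Without MRL/lpr replicate 3 it was 0.14 (adjusted p = 0.150). Another library of the strain stood apart for Cx3cr1, a microglial receptor gene with 132706 counts in MRL/lpr replicate 2 and 10334 to 29349 counts in the other libraries.

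Il10rb (ENSMUSG00000022969, chr16:91406164-91425834, plus strand) encodes the second receptor chain. Its levels of 89.1, 94.1 and 99.3 CPM in MRL/lpr libraries overlapped the 94.1, 93.5 and 101 CPM of MRL/mpj libraries. The log2 fold change was -0.03 (adjusted p = 0.818), with a 95% interval of -0.20 to 0.14 that was the narrowest among the members. On the deposited FPKM scale the strains did not overlap, with 20.38 to 21.51 FPKM in MRL/lpr libraries and 22.86 to 24.74 FPKM in MRL/mpj libraries, so the order depended on the scaling. The ratio of Il10ra to Il10rb was 7.32 ± 3.27 in MRL/lpr mice and 4.71 ± 0.329 in MRL/mpj mice (SD, n = 3 each). An exact two-sided permutation test gave p = 0.1, the smallest value that 3 against 3 libraries allow, and 0.5 after adjustment over the 5 ratios compared.

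The annotation places 2 further features wholly within the span of the Il10ra gene, and both were higher in MRL/lpr libraries. They were chosen after their values were seen. Mir7086 (ENSMUSG00000098361, chr9:45266643-45266707, minus strand) is a microRNA hairpin on the strand of Il10ra. Its sequence and those of its mature arms in RefSeq (GRCm38.p6) are shown because the hairpin is the feature of the locus with the largest difference, with the seeds, bases 2 to 8 of each arm, in capitals.
Mir7086 hairpin: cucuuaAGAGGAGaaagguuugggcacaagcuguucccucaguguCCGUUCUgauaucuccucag
mmu-miR-7086-5p: aAGAGGAGaaagguuugggca
mmu-miR-7086-3p: uCCGUUCUgauaucuccucag
The arms do not share a seed. The hairpin feature had 194, 211 and 168 counts in MRL/lpr libraries and 25, 20 and 48 counts in MRL/mpj libraries, a log2 fold change of 2.80 (SE 0.35, adjusted p = 0.000486). The lowest MRL/lpr library lay above the highest MRL/mpj library. These were libraries of long RNA, in which a count on the hairpin cannot be told apart from Il10ra RNA.

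Gm20612 (ENSMUSG00000093722, chr9:45261055-45261290, plus strand) is a processed pseudogene on the strand opposite to Il10ra. It had 307, 313 and 251 counts against 157, 155 and 172 counts, with groups that did not overlap, and a log2 fold change of 1.02 (SE 0.18, adjusted p = 0.00342). The strand setting of the counting is not given in the sources used here, so its reads cannot be told apart from reads of Il10ra. Unlike the Il10ra gene count, neither feature was highest in MRL/lpr replicate 3.

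**Figure D2:**
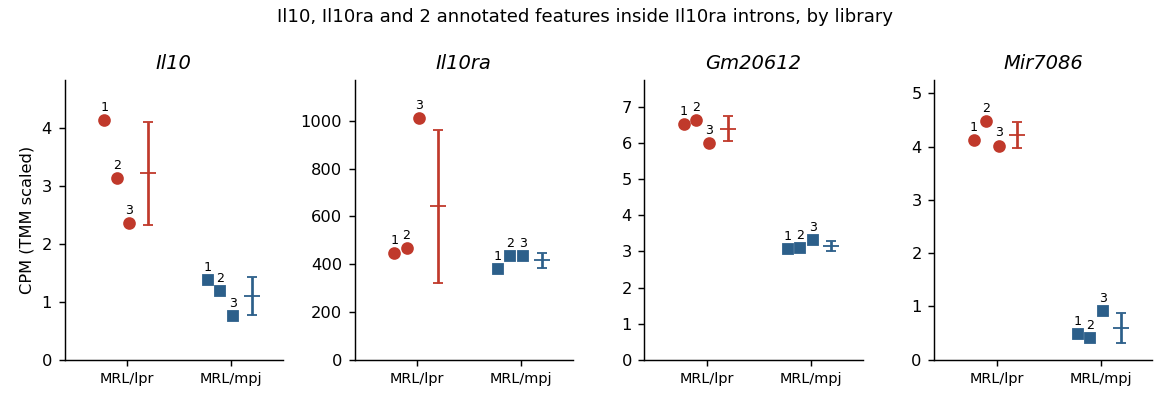
TMM-scaled CPM of Il10, Il10ra and the 2 features inside the Il10ra gene in each library (points, numbered by replicate), with the strain mean and SD (bars, n = 3), each panel on its own linear axis from 0. MRL/lpr replicate 3 alone carries the high Il10ra mean at 1012 CPM, while Gm20612 and Mir7086 are higher in all 3 MRL/lpr libraries.

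The 7 other IL-10 family cytokines, Il19, Il20, Il22, Iltifb, Il24, Ifnl2 and Ifnl3, had 0 counts in each library. With a floor of 3 counts, these counts allow a level of up to 0.0602 to 0.0660 CPM per library, relative to the plain library total. If a read pair is worth 4 counts and the floor is 3 pairs, this level becomes 0.241 to 0.264 CPM. Of the 8 IL-10 family cytokines looked for, Il10 was the only gene with counts.

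Il12b (ENSMUSG00000004296, chr11:44400063-44414033, plus strand) encodes the chain common to IL-12 and IL-23. It had 527, 647 and 441 counts in MRL/lpr replicates 1 to 3 and 539, 478 and 411 counts in MRL/mpj replicates 1 to 3. Raw counts overlapped, whereas after scaling the 11.2, 13.7 and 10.6 CPM of MRL/lpr libraries lay just above the 10.5, 9.56 and 7.90 CPM of MRL/mpj libraries. The log2 fold change was 0.35 (SE 0.16, 95% interval -0.03 to 0.72) and did not pass (adjusted p = 0.189).

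Il12a (ENSMUSG00000027776, chr3:68690644-68698547, plus strand), the partner chain that makes IL-12, had 8 counts in MRL/lpr replicate 3, 11 counts in MRL/mpj replicate 1 and 0 counts in the other 4 libraries. It fell below the count filter and was not tested. A strain difference was not detectable at this depth.

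Il23a (ENSMUSG00000025383, chr10:128296139-128298752, minus strand), the partner chain that makes IL-23, had 79, 41 and 36 counts in MRL/lpr replicates 1 to 3 and 59, 23 and 45 counts in MRL/mpj replicates 1 to 3. The strains overlapped, and the log2 fold change of 0.46 had a 95% interval of -0.64 to 1.56 (adjusted p = 0.580). The FPKM ratio of Il12b to Il23a was 13.6 ± 5.49 in MRL/lpr mice and 15.0 ± 7.60 in MRL/mpj mice (SD, n = 3 each; exact two-sided permutation test, p = 1).

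Il27 (ENSMUSG00000044701, chr7:126589010-126594941, minus strand) encodes the cytokine-specific chain of IL-27. It had 167, 80 and 87 counts in MRL/lpr libraries and 155, 146 and 109 counts in MRL/mpj libraries. MRL/lpr replicate 1 was the highest of the 6 and MRL/lpr replicate 2 the lowest, so the strains overlapped fully. The log2 fold change was -0.13 (95% interval -0.87 to 0.61, adjusted p = 0.838). The last 103 bases of Il27 overlap Apobr on the opposite strand.

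Ebi3 (ENSMUSG00000003206, chr17:55952640-55957022, plus strand) encodes the chain that completes IL-27. Its counts were 597, 609 and 785 in MRL/lpr replicates 1 to 3 and 864, 717 and 760 in MRL/mpj replicates 1 to 3, or 12.7, 12.9 and 18.8 CPM against 16.8, 14.3 and 14.6 CPM. MRL/lpr replicate 3 was the highest and the other MRL/lpr libraries were the lowest. The log2 fold change was -0.04 (95% interval -0.42 to 0.34, adjusted p = 0.897). Gm16712, an antisense gene that overlaps Ebi3 over 2252 bases, had 92 to 165 counts per library and a log2 fold change of 0.15 (adjusted p = 0.773), and without a stated strand setting the reads of the pair are uncertain. Ebi3 exceeded Il27 in each library, with an FPKM ratio of 5.98 ± 2.50 in MRL/lpr mice and 5.17 ± 0.937 in MRL/mpj mice (SD, n = 3 each; exact two-sided permutation test, p = 0.9).

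Il12rb1 (ENSMUSG00000000791, chr8:70808449-70821424, plus strand) encodes the receptor chain used by both IL-12 and IL-23. It had 15, 20 and 26 counts in MRL/lpr libraries and 21, 10 and 14 counts in MRL/mpj libraries. The strains overlapped at this low depth, and the 95% interval of the log2 fold change of 0.63 ran from -0.92 to 2.18 (adjusted p = 0.595).

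**Figure D3:**
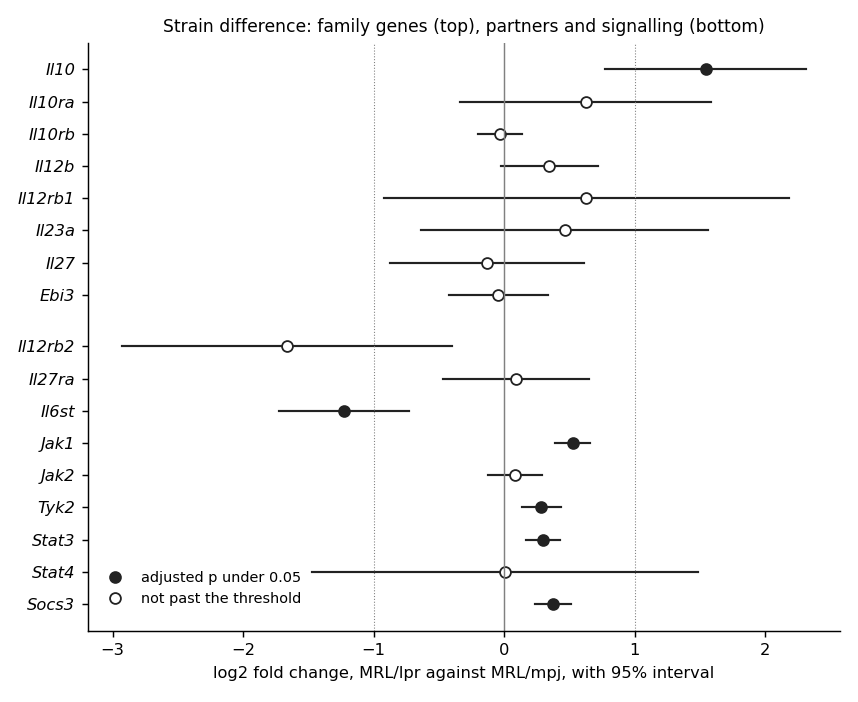
Log2 fold change of MRL/lpr against MRL/mpj (points) with 95% intervals (lines) for the 8 family genes tested, and below the gap for receptor partners, kinases, STAT genes and Socs3, with filled points for an adjusted p under 0.05 and dotted lines at -1 and 1. Il10 is the only filled point of the upper group at 1.54, while Il6st lies at -1.23 and Jak1 at 0.53 in the lower group.

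Receptor chains that pair with the family or serve its relatives gave 1 call. Of 9 such chains, 6 were tested, 1 fell and none rose by edgeR's test (1 of the 6, Ifnlr1, had higher levels at an unadjusted p of 0.0491), and their median log2 fold change was -0.13. Il6st, the signalling chain that IL-27 shares with the IL-6 family, fell from 529, 332 and 578 CPM in MRL/mpj libraries to 197, 202 and 216 CPM in MRL/lpr libraries. The groups did not overlap, and the log2 fold change was -1.23 (SE 0.20, adjusted p = 0.00801). Without MRL/lpr replicate 3 it was -1.26 and the call was lost (adjusted p = 0.0757).

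Il12rb2, the signalling chain of the IL-12 receptor, had 14, 45 and 13 counts in MRL/lpr libraries and 49, 102 and 104 counts in MRL/mpj libraries. Raw counts did not overlap, and CPM overlapped by a small margin (0.956 in MRL/lpr replicate 2, 0.953 in MRL/mpj replicate 1). Its log2 fold change of -1.66 (SE 0.56) missed the threshold at an adjusted p of 0.0681, and passed it in DESeq2 (0.0417), with counts divided by 4 (0.0431) and without MRL/lpr replicate 2 (-2.44, 0.0179). Il27ra, the IL-27 receptor chain, had 214, 137 and 143 counts against 150, 195 and 176 counts, which overlapped, and a log2 fold change of 0.09 (adjusted p = 0.846). Il23r had 0 counts in each library.

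Ifnlr1, the private receptor chain of the interferon lambda cytokines, had 23, 21 and 14 counts in MRL/lpr libraries and 0, 0 and 8 counts in MRL/mpj libraries, which did not overlap (adjusted p = 0.155). Without MRL/mpj replicate 3 it passed at an adjusted p of 0.0401. The other receptor chains tested, Il20rb and Il22ra2, had log2 fold changes of -0.02 and -0.24 (adjusted p = 0.982 and 0.737).

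Signalling genes downstream of these receptors gave calls in 1 direction. Of 8 kinase, STAT and SOCS genes tested, 5 rose, with a median log2 fold change of 0.32. All 8 log2 fold changes were above 0 in the main fit. Over all genes tested, 11.1% rose and 9.06% fell, which is the background for this list and those below. Jak1, the kinase bound to the IL-10 receptor's private chain, rose by 0.53 on the log2 scale (SE 0.06, adjusted p = 0.000234). Socs3, an inhibitor induced through STAT3, rose by 0.38 (adjusted p = 0.00201), and Stat3 itself by 0.30 (adjusted p = 0.00594). Tyk2, which serves both the IL-10 and the IL-12 receptors, rose by 0.28 (adjusted p = 0.0144), and did not pass without MRL/mpj replicate 1 (0.0540) or 2 (0.0782). The 3 smaller changes depended on the scaling. With library size only, which moves the median of all genes to -0.13, Stat3 and Tyk2 did not pass (adjusted p = 0.0787 and 0.129), and on log2(FPKM + 1) none of the 3 did (0.0689 for Socs3, 0.0689 for Stat3 and 0.0966 for Tyk2). Jak2, the kinase of IL12RB2, had a log2 fold change of 0.09 (adjusted p = 0.586), and Stat4, the main STAT of IL-12, had 0.01 (adjusted p = 0.996). The log2 fold change of Jak2 was below 0 in 3 of 16 alternative fits, and that of Stat4 in 6 of 15.

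Of 18 genes known to respond to IL-10 in macrophages, all were tested, 12 rose and 3 fell, and the median log2 fold change was 0.66. Past the study's minimum were Bcl3, a nuclear partner of NF-kB (1.09, SE 0.18, adjusted p = 0.00216), Hmox1, which degrades haem (1.0, SE 0.09, adjusted p = 7.65e-05), and Zfp36l1, which promotes decay of AU-rich mRNAs (1.0, SE 0.08, adjusted p = 2.41e-05). Etv3, Nfil3 and Sbno2, transcriptional regulators on the list, rose by 0.76, 0.63 and 0.68. Mrc1 and Il7r, genes for surface receptors, fell by 0.39 and 0.41. Mrc1 was not past the threshold in any fit that left out 1 library (adjusted p = 0.0614 to 0.159), and Tnfaip3, which rose, was lost without MRL/lpr replicate 3 (0.0585).

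Early response genes moved in the same libraries. The summed level of 10 such genes, a list added after the data were seen (Fos, Fosb, Jun, Junb, Egr1, Egr2, Ier2, Ier3, Nr4a1 and Hspa1a), was 28480 to 32005 CPM in MRL/lpr libraries and 15502 to 16557 CPM in MRL/mpj libraries, and 9 of the 10 rose. Zfp36, Dusp1 and Socs3 of the IL-10 response list and Atf3 of the regulators are themselves induced quickly by many stimuli. The part of this response in the list was not tested.

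Genes that IL-12 and IL-23 induce in lymphocytes were listed in the same way. Of 12 genes, 9 were tested, 4 rose and 1 fell, with a median log2 fold change of 1.52. Gzmb, a cytotoxic granule protease, had 164, 211 and 117 counts in MRL/lpr libraries and 30, 27 and 34 counts in MRL/mpj libraries. The groups did not overlap, and its log2 fold change was 2.59 (SE 0.31, adjusted p = 0.000333). Eomes, a transcription factor of cytotoxic lymphocytes, had 98, 123 and 67 counts against 26, 16 and 27 counts, again without overlap, and a log2 fold change of 2.22 (SE 0.39, adjusted p = 0.00318).

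Both genes are also on the NK cell marker list and count towards its summed level, which was higher in each MRL/lpr library. The markers Ncr1, Klrb1c, Klre1 and Klrd1 of that list did not rise. Ccr6, a chemokine receptor of IL-17-producing cells, rose by 0.96 (adjusted p = 1.03e-05), and Il18rap, a chain of the IL-18 receptor, by 0.78 (adjusted p = 0.0265). Il18rap was lost without MRL/lpr replicate 2, MRL/mpj replicate 1 or MRL/mpj replicate 2 (adjusted p = 0.0830 to 0.0969). It also did not pass with library size only (0.66, adjusted p = 0.0511), on log2(FPKM + 1) (0.24, 0.0631) or on log2(FPKM + 0.1) (0.57, 0.101). Ifng, the main product of IL-12 stimulation, had a log2 fold change of 1.52 that did not pass (adjusted p = 0.159), and Il17a had 0 counts in each library.

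Transcription factors with a known role at the Il10 and Il12b genes rose in 10 of 22 cases, with a median log2 fold change of 0.39, and the other 12 did not pass in either direction (edgeR). Cebpb, a factor of the C/EBP family, was 227, 219 and 212 CPM in MRL/lpr libraries and 108, 105 and 97.6 CPM in MRL/mpj libraries, and rose by 1.08 on the log2 scale (SE 0.07, adjusted p = 6.64e-06). Rel, an NF-kB subunit, was 553, 547 and 458 CPM against 252, 257 and 269 CPM, and rose by 1.0 (SE 0.08, adjusted p = 3.09e-05). Neither gene overlapped between strains.

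Of the other NF-kB subunits, Nfkb2, Relb, Nfkb1 and Rela rose by 0.99, 0.84, 0.40 and 0.38. Nfkb1 did not pass on log2(FPKM + 1) (adjusted p = 0.0523), and Rela did not with library size only (0.0807), on log2(FPKM + 1) (0.0953) or without MRL/mpj replicate 1 (0.0925) or 2 (0.0613). Batf, Atf3 and Bhlhe40 also rose, by 0.84, 0.79 and 0.74. Maf, an activator of Il10 in several leukocytes, had a log2 fold change of -0.15 (adjusted p = 0.0890), and fell without MRL/lpr replicate 3 (-0.14, adjusted p = 0.0363) and with library size only (-0.28, adjusted p = 0.0129). Irf1, an interferon regulatory factor, had 0.69 (adjusted p = 0.194), and passed without MRL/mpj replicate 1 (1.08, adjusted p = 0.000993). Ets1, a factor of lymphocytes among others, had the largest log2 fold change of this list, 1.62, which missed the threshold (adjusted p = 0.0675) and passed it in DESeq2 (0.00847). Counting each gene of all these lists once, 61 of 74 were tested, 30 rose, 4 fell and the median log2 fold change was 0.53. Over all genes tested, 11.1% rose, 9.06% fell and the median was -0.01. The lists were chosen with earlier results of these data known, and no test of them as sets was run.

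**Figure D4:**
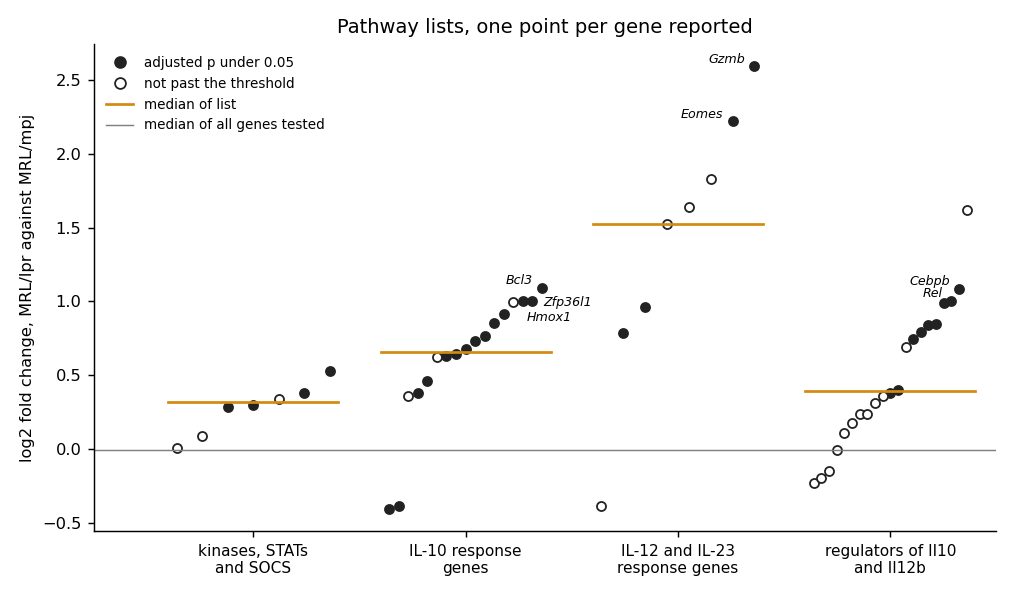
Log2 fold change of MRL/lpr against MRL/mpj for the genes reported from 4 pathway lists (points, ordered within a list), with filled points for an adjusted p under 0.05, the median over all tested genes of each list (orange) and the median of all genes tested (grey). Most points lie above the grey line, the list medians are 0.32, 0.66, 1.52 and 0.39 from left to right, and names mark genes past the study's minimum.

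The reference table of promoters held 3 of the 9 members, namely Il12a, Il12b and Ebi3. The 250 bases before the start of Il12b and Ebi3 (RefSeq, GRCm38.p6, plus strand) are shown because Cebpb and NF-kB genes rose while these genes did not. Capitals mark letters that match 1 of 3 short motifs searched on both strands, TTGCAA of the C/EBP factors, GGGNNNNNCC of NF-kB and GAGGAA of PU.1 and related ETS factors.
Il12b chr11:44399813-44400062: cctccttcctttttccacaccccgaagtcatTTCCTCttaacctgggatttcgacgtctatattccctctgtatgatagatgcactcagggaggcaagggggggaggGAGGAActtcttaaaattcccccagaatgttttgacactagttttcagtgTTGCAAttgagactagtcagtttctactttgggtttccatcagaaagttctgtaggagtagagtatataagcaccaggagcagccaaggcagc
Ebi3 chr17:55952373-55952622: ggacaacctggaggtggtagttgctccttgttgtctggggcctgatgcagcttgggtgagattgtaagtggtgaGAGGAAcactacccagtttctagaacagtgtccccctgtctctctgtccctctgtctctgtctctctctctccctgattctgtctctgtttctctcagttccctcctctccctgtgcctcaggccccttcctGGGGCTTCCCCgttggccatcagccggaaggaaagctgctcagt
The Il12b window holds TTGCAA 93 bases before the start, a motif found in 5.34% of the 32851 promoters of the same length, and GAGGAA at 2 places, found in 23.3% of promoters. The Ebi3 window holds 2 overlapping matches to GGGNNNNNCC, found in 45.8% of promoters, and 1 match to GAGGAA. Neither window matches TATAAA (12.4% of promoters), GAAANNGAAA of interferon-regulated genes (2.98%) or TGANTCA of AP-1 (6.75%). The Il12b window did not match GGGNNNNNCC. A match is a description of the letters only, and a binding site with other letters would not be marked.

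Among 14922 genes with a mean of at least 1 CPM, the 3 whose profile over the 6 libraries was most like that of Il10 were Cenpi, Cdc6 and Gm20186. The root mean square difference of their centred log2 CPM from that of Il10 was 0.133, 0.149 and 0.163. Cenpi encodes a kinetochore protein and Cdc6 a factor that licenses DNA replication. Their log2 fold changes were 1.47, 1.42 and 1.33 (adjusted p = 0.0103, 0.0150 and 0.00116). Since the genes were chosen for profiles like that of Il10, log2 fold changes near that of Il10 follow from the choice.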

How the data were processed

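RNA-seq libraries of CD11b-selected brain microglia were used, 3 of MRL/lpr and 3 of MRL/mpj mice. The authors deposited raw counts for each gene as whole numbers, and FPKM values in 1 table per library. Per the labels, ribosomal RNA was removed and stranded libraries were made, whereas the methods describe purified mRNA. The submitters' processing notes name cutadapt 1.9.3, HISAT2 2.0.4, Cuffdiff 2.2.1, Cufflinks and the GRCm38 build. The tool and strand setting behind the counts are not given in the sources used here. Of 55401 Ensembl identifiers, 55141 matched GENCODE M21 (GRCm38), which gave symbols and positions.

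Counts were tested with edgeR 4.0.16 in R 4.3.3 (filterByExpr with min.count 10 and min.total.count 15, TMM, robust quasi-likelihood test, Benjamini-Hochberg over 19554 genes). A gene rose or fell at an adjusted p under 0.05. The study's rule also asked for a log2 fold change of 1 or more in size. Standard errors and 95% intervals came from the fit and cover the spread between libraries. The steps were tested on simulated data. FPKM ratios were tested by exact permutation. Alternatives were DESeq2 1.42.0, limma 3.58.1 on log2(FPKM + 1) and log2(FPKM + 0.1), other scalings and filters, counts divided by 4, a replicate block and each library left out.

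Named genes were the 9 members, their receptor partners and signalling genes, list genes past the study's rule, and the 3 genes most like each member that passed; other list genes with values, single markers, the features of the Il10ra locus, and the early response list were chosen after their values were seen. The members and lists were chosen with earlier results of these data known. A few genes of the lists are not reported here by name, and the counts and medians of the lists include them.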

Additional observations from a re-analysis of the deposited data

How the results depend on the processing

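The Il10 difference kept its direction under 16 alternatives and its call under 15, with log2 fold changes of 0.79 to 1.55 for other tools and scalings and 1.32 to 1.74 with 1 library left out. On log2(FPKM + 1) it was 0.79 (adjusted p = 0.0218), under the study's minimum, so 0 members met that rule there, as without MRL/lpr replicate 1, where 0 members passed at all. The other members passed under no alternative that gave a value. Il12rb1 had no value with counts divided by 4, where it fell below the filter. With 1 library left out the log2 fold changes of Il10rb (-0.068 to 0.0069), Il27 (-0.50 to 0.074) and Ebi3 (-0.25 to 0.057) changed sign. Il10rb was 0.0069 and 0.0035 without MRL/lpr replicate 1 and MRL/mpj replicate 3, Il27 was 0.074 without MRL/lpr replicate 2, and Ebi3 was 0.057, 0.043 and 0.031 without MRL/lpr replicates 1 and 2 and MRL/mpj replicate 1. Those of Il10ra ran from 0.14 to 0.83. Pathway genes that fell were 2 to 4 with 1 library left out, and by the study's rule 6 to 9 were higher and 0 to 2 lower. The 8 higher by that rule became 3 with library size only, 2 on log2(FPKM + 1) and 3 on log2(FPKM + 0.1), and the 1 lower became 2 with DESeq2 and 2 with counts divided by 4. Genes lower over the whole table went from 1772 to 2790 with library size only, beside 1634 higher in place of 2178, and 1177 to 1971 with 1 library left out. On log2(FPKM + 1), 351 were higher and 263 lower by the study's rule, against 914 and 716. The cause was not tested.

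Same-numbered libraries did not deviate together (correlations -0.041, -0.020 and -0.033). No pairing by number was seen, although correlations over all genes cannot exclude one that touches few genes. With the replicate block, 2 pathway genes fell in place of 4, Il18rap and Tyk2 were lost (adjusted p = 0.0550 and 0.0540), Irf1 and Ets1 passed (0.0485 and 0.000271), and the Il10 log2 fold change was 1.55 (adjusted p = 0.0133). Il12a, Il12rb1 and Il23a had under 80 counts in each library, which limits what their intervals can show.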
